A study of Rattus norvegicus with 35 samples.

Results

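Converted hypoblast stem cells with high and with low Ccnb1 transcript were compared among the cells in which many genes were detected. Cells with a read in at least 4000 genes, called gene-rich here, numbered 19 of the 34 single cells. They were chosen by Ccnb1 itself into 12 cells at 100 CPM or more (CPM is counts scaled to a library total of 1000000), the Ccnb1-high cells, and 7 cells below 100 CPM, the Ccnb1-low cells. Ccnb1 is therefore a description of the sides and not a result.

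They came from rat embryonic stem cells that had been grown for 12 days with LIF, PDGF, EGF and fetal bovine serum to convert them to hypoblast. All 34 cells and 1 bulk library of the population had the same culture description, with no genotype change, drug or time point that separates the sides. They were captured and amplified on a Fluidigm C1 instrument, which processes each cell in its own chamber, with Nextera XT libraries. The labels name no separate cultures, so each side was treated as 1 sample: no test was made, and every SD below is a spread over cells, which are not replicates.

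Cyclin B1, the product of Ccnb1, binds and activates the kinase CDK1 and drives cells from G2 into mitosis. Its transcript builds up through S phase and G2 and its protein is destroyed at anaphase, after the anaphase-promoting complex is activated by CDC20. Hypoblast, also called primitive endoderm, is the early lineage that gives rise to yolk sac endoderm, and it is known for GATA factors, PDGF receptor signalling and the secretion of basement membrane.

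Many mitotic genes carry a promoter element called the cell cycle genes homology region, together with CCAAT boxes, which bind NF-Y. The element was searched for here as the letters TTTGAA or TTCGAA only. Promoter letters of 6 mitotic genes and of the G1/S cyclin gene Ccne1 are shown as examples from the contrasts below. They were picked after their values were seen, and several have smaller folds than mitotic genes that are not shown, such as Aurka and Spag5. Each is the 150 bases before the start site that RefSeq annotates in the GRCr8 build, 5′ to 3′ on the strand of the gene, with these letters on either strand in capitals. A CCAAT box on the other strand reads ATTGG. The windows lie at chr2:33655226-33655375 (minus strand) for Ccnb1, chr8:79981659-79981808 (minus strand) for Ccnb2, chr1:199952594-199952743 (minus strand) for Mki67, chr5:137255800-137255949 (minus strand) for Cdc20, chr1:143659331-143659480 (plus strand) for Prc1, chr8:71320585-71320734 (minus strand) for Kif23 and chr1:99927910-99928059 (minus strand) for Ccne1.
Ccnb1: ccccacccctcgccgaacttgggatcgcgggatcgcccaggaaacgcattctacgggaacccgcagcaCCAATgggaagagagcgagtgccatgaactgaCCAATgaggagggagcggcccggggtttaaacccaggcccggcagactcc
Ccnb2: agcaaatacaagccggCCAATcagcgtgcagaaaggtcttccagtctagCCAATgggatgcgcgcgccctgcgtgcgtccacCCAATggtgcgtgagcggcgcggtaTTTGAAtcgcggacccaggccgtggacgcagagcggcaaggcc
Mki67: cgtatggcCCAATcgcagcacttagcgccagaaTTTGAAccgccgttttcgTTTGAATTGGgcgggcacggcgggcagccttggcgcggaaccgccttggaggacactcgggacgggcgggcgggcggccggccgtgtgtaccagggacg
Cdc20: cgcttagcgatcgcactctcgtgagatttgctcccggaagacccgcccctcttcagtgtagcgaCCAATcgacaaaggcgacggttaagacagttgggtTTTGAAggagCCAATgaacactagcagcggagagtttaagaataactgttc
Prc1: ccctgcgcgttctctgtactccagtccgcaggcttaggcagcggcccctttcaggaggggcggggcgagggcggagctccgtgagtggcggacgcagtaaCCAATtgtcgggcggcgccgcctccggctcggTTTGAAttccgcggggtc
Kif23: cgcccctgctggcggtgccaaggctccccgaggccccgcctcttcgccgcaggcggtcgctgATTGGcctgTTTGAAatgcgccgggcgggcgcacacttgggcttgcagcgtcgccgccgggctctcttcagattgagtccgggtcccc
Ccne1: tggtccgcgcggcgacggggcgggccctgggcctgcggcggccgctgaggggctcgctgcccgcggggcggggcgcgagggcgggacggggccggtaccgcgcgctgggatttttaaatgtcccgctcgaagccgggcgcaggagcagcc

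The Ccnb1 window held 2 CCAAT boxes and neither TTTGAA nor TTCGAA, whereas the other 5 mitotic windows held TTTGAA and at least 1 CCAAT box. In Mki67 a TTTGAA and an ATTGG overlapped. The Ccne1 window held none of these letters. Over windows of 300 bases, 250 before to 50 after the start, TTTGAA or TTCGAA occurred in 58.1% of the 93 mitotic genes with a promoter, in 23.1% of 39 S phase genes and in 19.5% of all 27457 promoters. CCAAT occurred in 63.4% of the mitotic windows, in 56.4% of the S phase windows and in 37.7% of all. Over the lists that are not mitotic its share ran from 12.5% (apoptosis and RNA quality) to 76.2% (cholesterol and fatty acid synthesis), so it was not particular to mitotic genes. Among mitotic genes the share with TTTGAA or TTCGAA was 59.5% of the 37 that were at least 2-fold higher in Ccnb1-high cells and 56.8% of the 44 that were not. A match is a description of letters only, and a window without a match, such as that of Ccnb1, is not shown to lack the element.

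Sequencing depth was similar on the sides. Total counts ran from 175639 to 361960 in Ccnb1-high cells (median 300491) and from 95359 to 379141 in Ccnb1-low cells (median 309774), and genes with a read from 4255 to 5514 and from 4028 to 5496. Between 62.1% and 70.4% of the values above 0 in a cell were even numbers, and whether the ends of a read pair were counted separately is not given in the sources used here. No 2 of the 19 cells had identical values.

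The hypoblast label was checked first. Gata6, a GATA factor that specifies the lineage, had reads in 11 of 12 Ccnb1-high and 7 of 7 Ccnb1-low cells, and Gata4 in 12 of 12 and 6 of 7. The Ccnb1-low cell C46 stood apart. It was the shallowest gene-rich cell (95359 counts), its summed core hypoblast genes came to 62.9 CPM against 1304 to 3608 in Ccnb1-high cells, Gata4 and Sox17 were at 0, and it alone among the gene-rich cells had reads of Col1a2 (252 CPM) and S100a4 (902 CPM), which are fibroblast and mesenchymal markers. Other members of that marker list differed in C46: Acta2 was at 378 CPM, Col5a1 at 10.5 CPM, and Col1a1, Col3a1 and Dcn were at 0. Its Col1a2 level rests on 24 reads. The summed level of the list ran from 37.05 to 393 CPM in Ccnb1-high cells and from 39.6 to 1542 CPM in Ccnb1-low cells. Where leaving out C46 ended a 2-fold difference of a gene named below, that is given beside it, and its part in the other results was not tested.

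By the rule, Ccnb1 ran from 107 to 1618 CPM in Ccnb1-high cells (median 460) and from 0 to 63.2 CPM in Ccnb1-low cells (median 12.3). Just inside the threshold lay C72 at 107 CPM (30 counts) and C43 at 143 CPM, and just outside lay C23 at 63.2 CPM and C32 at 49.4 CPM (16 counts each).

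Mitotic genes were on average higher in Ccnb1-high cells, most of all those of the spindle. A gene was compared when its mean over the sides was at least 20 CPM and it had a read in at least 5 gene-rich cells, and a ratio is log2 of the mean CPM of the sides after 10 CPM was added to each. Of 95 compared genes on the 6 mitotic lists, 42 were at least 2-fold higher in Ccnb1-high cells (44.2%) and 5 at least 2-fold lower, with a median log2 ratio of 0.85. Of all 5354 genes compared, 14.6% (781) were at least 2-fold higher and 10.7% (574) at least 2-fold lower, with a median log2 ratio of 0.04. Ccnb1 was left out of these counts, and the counts of each list below are to be read beside these shares of all genes. Without C46 the mitotic counts were 43 and 4 of 96, with a median of 0.87, and 40 of the 42 genes were still higher.

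The spread between cells was wide throughout. Of the 42 mitotic genes, Tpx2 was the only gene whose mean difference exceeded the larger SD over cells of the sides, and the same held for 16 of the 781 higher and 24 of the 574 lower genes overall. No compared gene other than Ccnb1 had every Ccnb1-high cell above, or every one below, all Ccnb1-low cells. The sides therefore differ in means over overlapping cells.

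Single cells also decided many values. When each of the 19 cells was left out in turn, 31 of the 42 higher mitotic genes and 1 of the 5 lower ones, Cdc25a, stayed past 2-fold each time. The ratios of Aurkb, Dlgap5, Mastl, Nek2 and Spdl1 fell under 2-fold when the cell that moved each most was left out. Arhgap11a, Bora, Incenp, Nsl1, Numa1 and Nusap1 then had too few reads or cells to be compared. Of the 47 mitotic genes past 2-fold either way, 41 had a fold that moved by over 1.5 times, or could no longer be given, with some cell left out. The same held for 52 of 77 other genes past 2-fold named here or on the lists, so folds below are approximate.

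**Figure D1:**
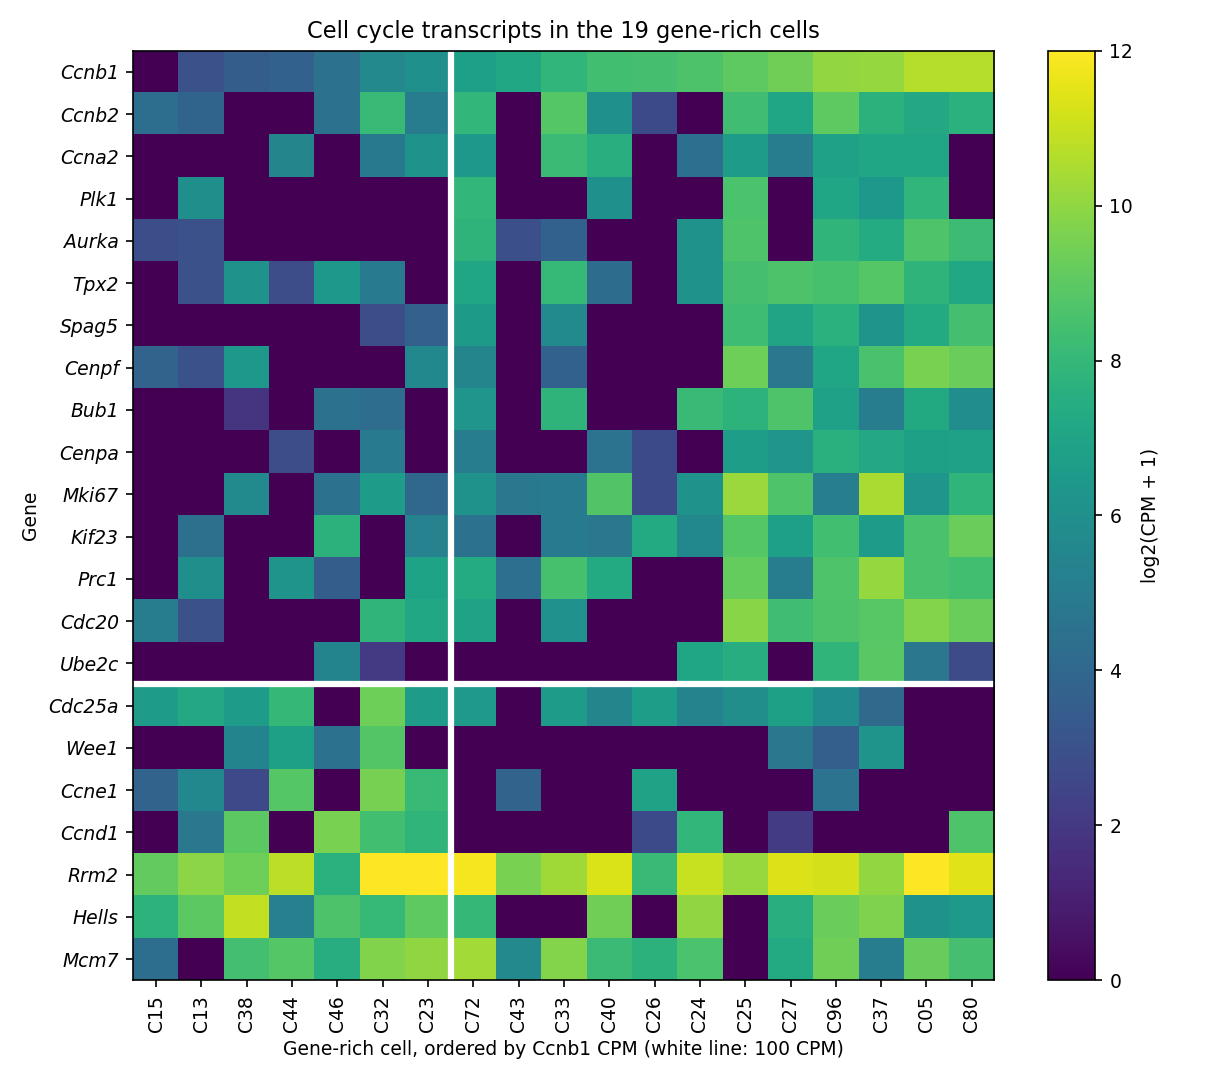
Levels of 22 cell cycle genes (rows) in each of the 19 gene-rich cells (columns, from lowest to highest Ccnb1 CPM), as log2(CPM + 1). Above the horizontal line, mitotic genes are brighter in most cells right of the 100 CPM line but dark in C43 and C26; below it, Ccne1, Ccnd1 and Wee1 are brighter in cells left of the line.

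**Figure D2:**
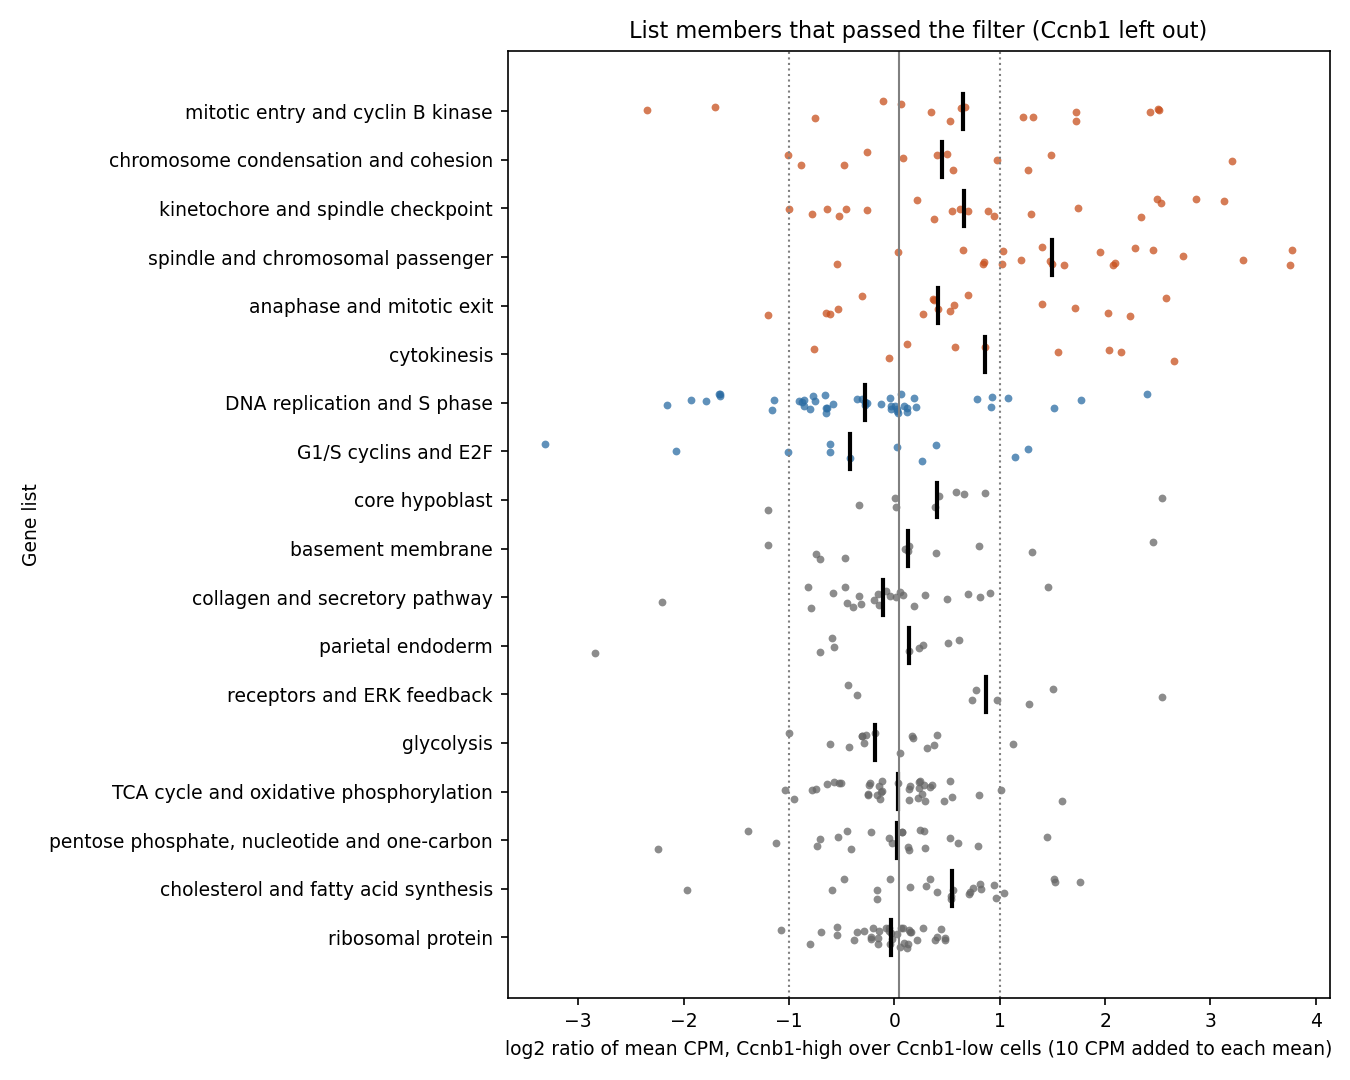
Log2 ratio of mean CPM of Ccnb1-high over Ccnb1-low cells for each compared member of 18 gene lists, 1 dot per gene, with the list's median as a black bar, 2-fold limits dotted and the median of all genes (0.04) as a grey line. The spindle and chromosomal passenger list lies farthest to the right, with a median of 1.50, and the S phase list lies left of the line at −0.28.

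The list of mitotic entry genes, the cyclins and kinases that start mitosis, had 7 of 16 compared members at least 2-fold higher and 2 lower with Ccnb1 left out (median log2 ratio 0.65). Ccnb2, the second B-type cyclin, ran from 0 to 524 CPM in Ccnb1-high cells (median 175) and from 0 to 272 CPM in Ccnb1-low cells (median 19.4). Its means were 192 ± 173 (SD, n = 12 cells) and 51.1 ± 98.0 CPM (n = 7), a 3.77-fold difference. The sides overlapped, since the Ccnb1-low cell C32 lay above 9 of the 12 Ccnb1-high cells.

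Plk1, the polo kinase that acts in spindle assembly and mitotic entry, had reads in 6 of 12 Ccnb1-high cells, at up to 393 CPM, and in 1 of 7 Ccnb1-low cells, C13, at 61.3 CPM. Its means were 96.3 ± 131 and 8.75 ± 23.1 CPM, an 11.01-fold difference. Ccna2, cyclin A2, averaged 90.2 ± 88.2 against 20.3 ± 28.3 CPM (4.45-fold). Bora, which helps Aurora A activate Plk1, had 55.8 ± 123 against 2.25 ± 4.13 CPM, with too few reads on the low side for a fold. Gtse1, Mastl and Cks2 were higher by 11.6-, 3.19- and 2.79-fold, and without C46 the fold of Cks2, a small CDK-binding protein, was 4.96. Without C37 the fold of Mastl was 1.94, and without C40 Bora was not compared. The kinase gene itself, Cdk1, differed less, at 180 ± 154 against 122 ± 67.0 CPM (log2 ratio 0.53).

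The 2 lower members of this list act at other points of CDK control. Cdc25a, a phosphatase that activates CDK2 as well as CDK1, ran from 0 to 114 CPM in Ccnb1-high cells (median 51.0) and from 0 to 643 CPM in Ccnb1-low cells (median 97.6), with means of 51.6 ± 42.0 and 190 ± 213 CPM, 3.69-fold lower in Ccnb1-high cells. Wee1, the kinase that holds CDK1 inactive, was at 0 in 9 of 12 Ccnb1-high cells and reached 74.1 CPM in the others. In Ccnb1-low cells it had reads in 4 of 7 and reached 442 CPM in C32, which held 71.4% of that side's sum. The means were 9.35 ± 21.9 and 88.4 ± 161 CPM, 9.45-fold lower in Ccnb1-high cells, and without C32 Wee1 was not compared.

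The spindle and chromosomal passenger list had 16 of 21 compared members at least 2-fold higher in Ccnb1-high cells and none lower, with a median log2 ratio of 1.50. Without C46 the count was 14 of 21 and the median 1.39, as the ratios of Aurkb (1.02) and Dlgap5 (1.04) went to 0.85 and 0.84. They were lower still without C40 (Aurkb, 0.81) and without C37 (Dlgap5, 0.20). Aurka, the Aurora A kinase of the spindle poles, ran from 0 to 419 CPM in Ccnb1-high cells (median 118) and from 0 to 6.81 CPM in Ccnb1-low cells (median 0). Its means were 153 ± 161 and 1.89 ± 3.24 CPM, an 80.8-fold difference that rests on 4 reads on the low side. It had reads in 9 of 12 Ccnb1-high cells (exact 95% interval 42.8 to 94.5%) and 2 of 7 Ccnb1-low cells (3.67 to 71.0%), and 8 Ccnb1-high cells lay above every Ccnb1-low cell.

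Tpx2, which activates Aurora A on microtubules, ran from 0 to 453 CPM in Ccnb1-high cells (median 184) and from 0 to 83.9 CPM in Ccnb1-low cells (median 6.81), with means of 201 ± 163 and 28.4 ± 35.3 CPM, 7.08-fold. Spag5, a spindle and kinetochore protein also called astrin, averaged 115 ± 123 against 2.58 ± 4.70 CPM, 44.6-fold, with reads in 8 of 12 and 2 of 7 cells. Hmmr, a spindle pole protein, averaged 68.3 ± 96.7 against 1.76 ± 3.00 CPM (38.8-fold). For these genes 8, 8 and 7 of the 12 Ccnb1-high cells lay above all Ccnb1-low cells, and the others fell among them. Nusap1, which bundles spindle microtubules near chromosomes, had 371 reads in 5 Ccnb1-high cells and 0 in Ccnb1-low cells. It was 82.4-fold higher against a floor of 3 reads over the low side, but C37 held 55.0% of its sum. With any 1 of its 5 cells left out, Nusap1 was not compared.

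The kinesins Kif18a, Kif18b and Kif2c, the passenger subunits Cdca8 and Incenp, and Cep55, Tacc3, Numa1 and Nek2 were higher by 2.81- to 9.02-fold. All 16 low-side reads of Kif2c were in C46, as were 95.6% of the low-side sum of Cep55, so that the log2 ratios of Kif2c and Cep55 went from 1.61 and 1.95 to 3.37 and 3.28 without it. The ratio of Nek2 was 0.68 without C37. Numa1 was not compared without C25, nor was Incenp without C33.

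Kinetochore and spindle checkpoint genes were split, with 7 of 20 compared members higher, 1 lower and a median log2 ratio of 0.66. Bub1, the checkpoint kinase at kinetochores, ran from 0 to 414 CPM in Ccnb1-high cells (median 94.6) and from 0 to 20.97 CPM in Ccnb1-low cells (median 0), with means of 130 ± 130 and 6.02 ± 9.46 CPM, 21.6-fold, or 36.9-fold without C46. Of the 12 Ccnb1-high cells 9 were above all Ccnb1-low cells and the other 3 were at 0. Cenpf, a large kinetochore protein of G2 and mitosis, averaged 220 ± 300 against 21.6 ± 32.4 CPM (10.1-fold). Its median in Ccnb1-high cells was 34.9 CPM, so a few cells, led by C05 at 780 CPM, carried the mean.

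Cenpa, the histone of centromeres, averaged 67.4 ± 66.6 against 5.29 ± 11.5 CPM (12.7-fold). Cenpw, Cenpn and Spdl1 were 8.08-, 3.93- and 2.91-fold higher. Nsl1 of the kinetochore's MIS12 complex had reads in 6 of 12 and 0 of 7 cells, 31.6-fold higher against the floor. The log2 ratio of Spdl1 was 0.86 without C25, and Nsl1 was not compared without C37 or without C80. A count of 0 in 7 cells allows a share of up to 41.0% of cells with a read (exact 95% interval, which treats the cells as independent draws). Mad2l1, the checkpoint protein MAD2, went the other way, at 71.99 ± 103 against 154 ± 101 CPM (2.15-fold lower). Its log2 ratio was −0.94 without C46 and −0.81 without C38, and leaving out any 1 of 13 cells ended the 2-fold difference. Zwint, another kinetochore protein, took up much of the list's summed level, at 2911 ± 1959 against 4193 ± 2754 CPM, and was left out of the mitotic sums below after its level was seen.

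Of 12 compared genes of chromosome condensation and cohesion, 3 were higher and 1 lower (median 0.45). Mki67, the chromosome-coating protein Ki-67 used as a marker of cycling cells, ran from 5.53 to 1408 CPM in Ccnb1-high cells (median 74.8) and from 0 to 98.9 CPM in Ccnb1-low cells (median 15.8). Its means were 331 ± 476 and 26.9 ± 36.9 CPM, a 12.3-fold difference. It had reads in 12 of 12 (exact 95% interval 73.5 to 100%) and 4 of 7 cells (18.4 to 90.1%), or 11 and 3 after each cell was thinned to 95359 reads. Only 5 Ccnb1-high cells were above all Ccnb1-low cells, with C37 and C25 far above the others. Kif22, the chromosome-arm kinesin, was 3.00-fold higher, and 15.7-fold without C46, which had 566 CPM. Stag1, a cohesin subunit, was 3.71-fold higher, and Ncaph2 of condensin II was 2.21-fold lower, or 1.38-fold without C44.

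Genes of anaphase and mitotic exit had 5 of 17 compared members higher and 1 lower (median 0.42). These are 29.4% and 5.88%, beside 14.6% and 10.7% of all genes. Cdc20, the activator of the anaphase-promoting complex, ran from 0 to 944 CPM in Ccnb1-high cells (median 218) and from 0 to 229 CPM in Ccnb1-low cells (median 6.81), with means of 315 ± 345 and 59.1 ± 91.5 CPM, 5.33-fold. The 6 cells with the most Ccnb1 (C25, C27, C96, C37, C05 and C80) had 317 to 944 CPM of Cdc20, above every other cell. This cut at 6 cells was placed after the values were seen and uses Ccnb1 again, so it is a description only. C43, C40, C26 and C24, also Ccnb1-high, had 0. Ube2c, the ubiquitin-conjugating enzyme of that complex, averaged 88.1 ± 149 against 6.43 ± 15.7 CPM (13.7-fold), with reads in 6 of 12 and 2 of 7 cells. C46 held 93.1% of its low-side sum, and without that cell 1 read was left there, too few for a fold. Among the complex's subunits Cdc27, Anapc2 and Anapc1 were 7.21-, 3.996- and 2.83-fold higher (Anapc1 6.68-fold without C46). Anapc7 was 3.82-fold lower and was not compared without C13.

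Cytokinesis genes had 4 of 9 compared members higher and none lower (median 0.86). Prc1, which bundles the microtubules of the central spindle, ran from 0 to 1095 CPM in Ccnb1-high cells (median 247) and from 0 to 122 CPM in Ccnb1-low cells (median 10.5), with means of 294 ± 316 and 38.3 ± 48.4 CPM, 7.69-fold. Kif23, the kinesin of the centralspindlin complex, averaged 190 ± 204 against 38.5 ± 77.0 CPM, 4.92-fold. C46 held 77.8% of the low side's Kif23, at 210 CPM, and without it the fold was 18.97. Arhgap11a and Kif20b were 12.1- and 3.55-fold higher, and Arhgap11a was not compared without C25.

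**Figure D3:**
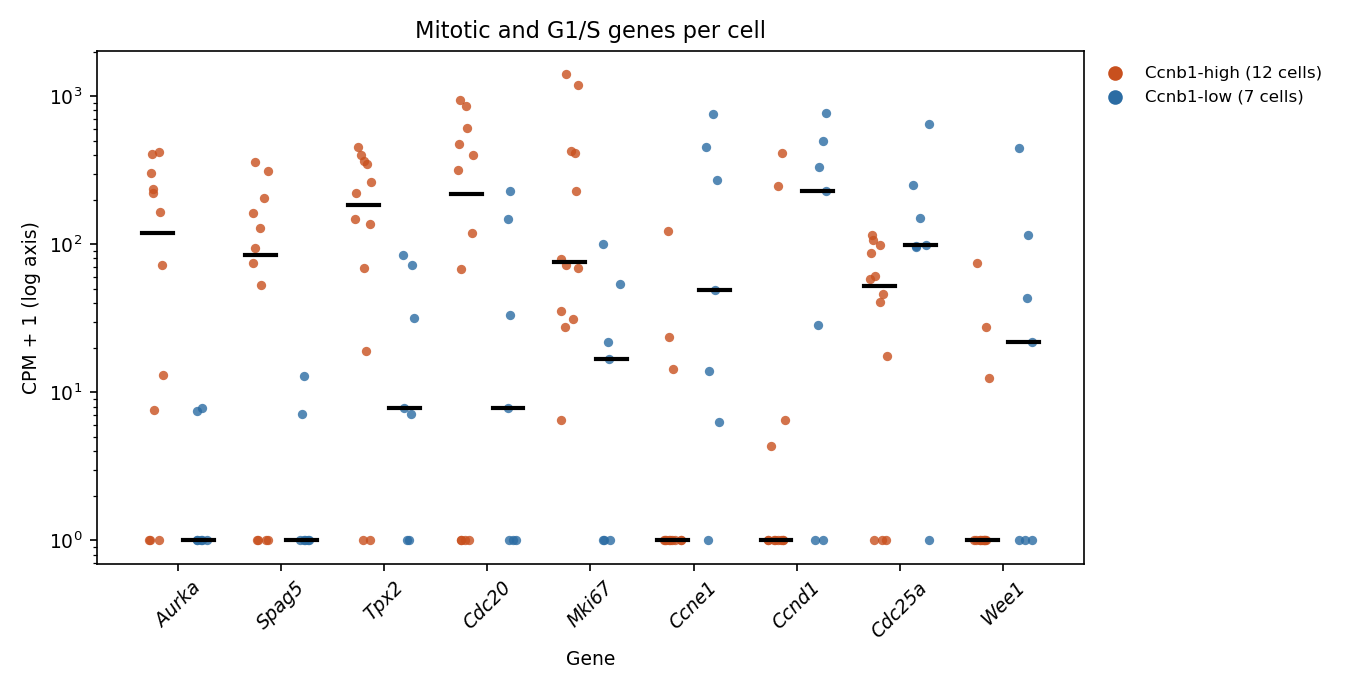
CPM + 1 on a log axis for 5 mitotic genes and 4 genes of G1/S and CDK control, 1 dot per cell and a bar at the median of each side. Aurka and Spag5 reach 6.81 and 11.9 CPM at most in Ccnb1-low cells, and Ccne1 is at 0 in 9 of 12 Ccnb1-high cells.

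Genes of DNA replication and S phase did not share the mitotic pattern. Of 46 compared, 4 were at least 2-fold higher and 8 lower in Ccnb1-high cells, against 14.6% and 10.7% of all genes, with a median log2 ratio of −0.28. Of the members with the highest levels, some were close: Rrm2, the small subunit of ribonucleotide reductase, averaged 2061 ± 1196 against 2118 ± 2251 CPM, Mcm7 of the replicative helicase 408 ± 384 against 407 ± 395 CPM, and Rfc1 of the clamp loader 315 ± 214 against 301 ± 172 CPM. Hells, a chromatin remodeller that is also among them, averaged 311 ± 371 against 549 ± 625 CPM.

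The 12 members past 2-fold were picked out after their values were seen. Lower in Ccnb1-high cells were the helicase subunits Mcm2 (3.34-fold) and Mcm4 (2.31-fold), Mcm10, which acts when the helicase is activated (5.06-fold), the reductase subunit Rrm1 (3.34-fold), the clamp loader subunit Rfc2 (3.39-fold) and the polymerase genes Pold1 (8.07-fold), Pold2 (2.74-fold) and Pole (5.22-fold). Pold2 did not pass without C46 (log2 ratio −0.56), nor did Mcm4 without C44 (−0.96). Higher were Usp1, a deubiquitinase of the replication clamp (6.50-fold), the primase Prim1 (4.28-fold), Pold3 (4.45-fold) and Rfc3 (2.35-fold). C26 held 54.2% of the Usp1 sum of its side, and Rfc3 had a log2 ratio of 0.89 without C46 or without C15, and Prim1 of 0.95 without C24.

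The G1/S list of 11 compared genes had 2 higher and 3 lower members and a median log2 ratio of −0.42, or −0.04 over 10 genes without C46. Ccne1, cyclin E1, which with CDK2 starts S phase, was at 0 in 9 of 12 Ccnb1-high cells and reached 122 CPM in C26. In Ccnb1-low cells it ran from 0 to 754 CPM (median 47.7), with C32, C44 and C23 at 754, 454 and 269 CPM. The means were 13.1 ± 34.9 and 220 ± 291 CPM, 16.8-fold lower in Ccnb1-high cells, and reads were found in 3 of 12 (exact 95% interval 5.49 to 57.2%) and 6 of 7 cells (42.1 to 99.6%). Ccnd1, cyclin D1, which carries growth signals to the G1 kinases, was at 0 in 8 of 12 Ccnb1-high cells, with C80 at 409 and C24 at 247 CPM, and ran from 0 to 766 CPM in Ccnb1-low cells (median 229). Its means were 55.4 ± 132 and 264 ± 291 CPM, 4.78-fold lower in Ccnb1-high cells. Its highest cell was C46, without which the low-side mean was 181 CPM.

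The kinases that these cyclins bind were near equal, Cdk4 at 330 ± 140 against 324 ± 39.2 CPM and Cdk2 at 243 ± 163 against 328 ± 208 CPM. E2f4 and Skp2 were higher by 2.52- and 2.90-fold, and E2f7 was 2.77-fold lower but no longer passed the filter without C46. The log2 ratio of E2f4 was 0.77 without C40 and that of Skp2 0.71 without C24. Among genes of growth arrest and the stress checkpoint, Mdm2 and Plk2 were higher by 2.27- and 2.62-fold and Gadd45a was 2.54-fold lower. Without C46, Mdm2 and Gadd45a had log2 ratios of 0.91 and −0.84. The ratios were 0.86 without C96 for Mdm2, 0.71 without C80 for Plk2 and −0.74 without C13 for Gadd45a.

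Cells on each side differed widely among themselves in their summed mitotic level. The sum over 107 mitotic genes, without Ccnb1 and Zwint, ran from 4116 to 19390 CPM in Ccnb1-high cells (median 11621) and from 3561 to 9983 CPM in Ccnb1-low cells (median 7762). By this sum 9 of 12 Ccnb1-high cells lay above C46, the highest Ccnb1-low cell, and C27, C43 and C26 lay within the range of the Ccnb1-low cells. That order depends on leaving out Zwint, which reached 6306 CPM in Ccnb1-high and 9315 CPM in Ccnb1-low cells. The latter was in C44, whose sum without Zwint was 6579 CPM. With Zwint added, C44 would be the highest Ccnb1-low cell and fewer Ccnb1-high cells would lie above it. C43 and C26 were Ccnb1-high cells with few mitotic transcripts, at 4423 and 4116 CPM, and 30 and 29 of the 42 higher genes were at 0 in them. C25 and C37, at 19390 and 18845 CPM, together held the highest level of 17 of those 42 genes.

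Detection gave the same order of the medians but not of the cells. C43 and C26, with reads of 36 and 41 of the 107 genes, lay below every Ccnb1-low cell. C27, C33 and C40, with 64, 64 and 66, lay below C23 (68), the highest Ccnb1-low cell by this count. Ccnb1-high cells had reads of 36 to 89 of the 107 genes (median 74) and Ccnb1-low cells of 44 to 68 (median 58). After thinning every cell to 95359 reads the ranges were 28 to 85 (median 68.5) and 42 to 65 (median 52), while all genes with a read had medians of 4181.5 and 4057.

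The S phase sum ran from 4070 to 12150 CPM in Ccnb1-high cells (median 7818) and from 2754 to 14444 CPM in Ccnb1-low cells (median 9250). C25 and C37, highest in the mitotic sum, had S phase sums of 4070 and 5327 CPM, and C23 and C32 had the highest S phase sums of all cells, at 14444 and 12781 CPM. C23 and C32 were also the Ccnb1-low cells nearest the threshold, with 269 and 754 CPM of Ccne1 and 146 and 229 CPM of Cdc20. C15 was lowest in both sums and had no Ccnb1 read, with 5138 genes detected.

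**Figure D4:**
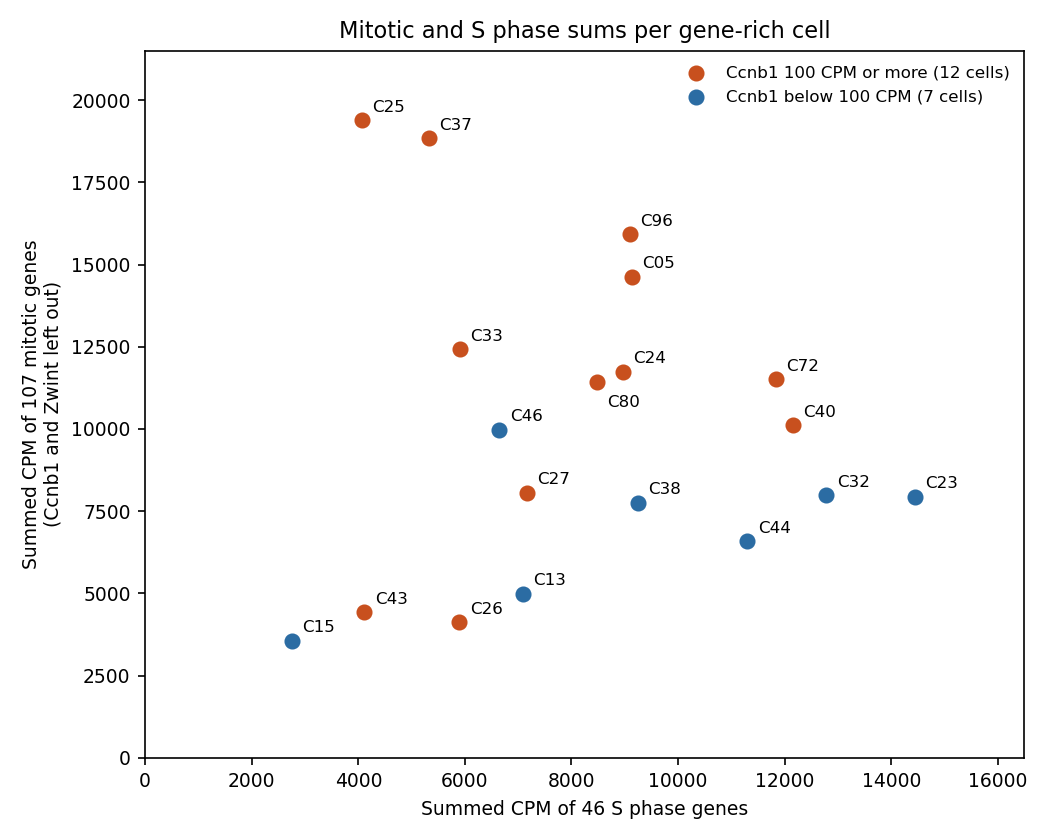
Summed CPM of 107 mitotic genes (vertical, Ccnb1 and Zwint left out) against summed CPM of 46 S phase genes (horizontal), 1 labelled dot per gene-rich cell. C25 and C37 lie high on the left, C23 and C32 low on the right, and the Ccnb1-high cells C43 and C26 lie among the Ccnb1-low cells near the lower left.

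Of 10 compared core hypoblast genes, 1 was at least 2-fold higher, Pdgfra, and 1 lower, Nid2, beside 14.6% and 10.7% of all genes. The median log2 ratio was 0.40, or 0.19 without C46. Nid2 is described with the basement membrane. Gata6 averaged 275 ± 176 against 272 ± 162 CPM, Gata4 349 ± 189 against 258 ± 236 CPM, and Dab2, an endocytic adaptor of the lineage, 460 ± 401 against 288 ± 213 CPM. Sox17 and Foxa2, endoderm transcription factors, averaged 53.9 ± 41.2 against 32.6 ± 34.5 CPM and 89.0 ± 105 against 44.4 ± 45.3 CPM.

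Pdgfra, the PDGF receptor alpha that is a defining surface marker of this lineage, ran from 0 to 1301 CPM in Ccnb1-high cells (median 480) and from 0 to 276 CPM in Ccnb1-low cells (median 13.6). Its means were 431 ± 361 and 65.8 ± 105 CPM, 6.56-fold, and the difference exceeded the SD over cells of either side. Of the 12 Ccnb1-high cells 8 were above all Ccnb1-low cells and the others ran from 0 to 199 CPM, while C44 and C23 held most of the low side's level. The receptor and ERK feedback list, which includes Pdgfra, had 3 of 8 compared members higher, beside 14.6% of all genes, and none lower (median 0.87). The other 2 were Lifr, the LIF receptor (3.97-fold), and Spry2, a feedback inhibitor of receptor signalling (2.78-fold). C72 held 54.1% of the Lifr sum of its side, and without it the fold was 1.99. Il6st, Ptpn11 and Stat3 had ratios of 0.97, 0.74 and −0.44.

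Basement membrane genes, for which the lineage is known, were close in their most abundant members. Lama1, the laminin alpha 1 chain, averaged 3298 ± 1499 against 3016 ± 2220 CPM, Lamc1 3390 ± 1456 against 2581 ± 1220 CPM, the collagen IV chain Col4a1 2407 ± 907 against 2241 ± 1130 CPM, and the matricellular protein Sparc 4117 ± 2176 against 3726 ± 1824 CPM. Of 11 compared, 2 were higher and 1 lower, beside 14.6% and 10.7% of all genes, with a median of 0.13, or −0.06 without C46. Dag1, the laminin receptor dystroglycan, was 2.97-fold higher. Agrn, the heparan sulfate proteoglycan agrin, had 160 reads in 5 of 12 Ccnb1-high cells and 0 in Ccnb1-low cells (29.6-fold against the floor). Nid2, a nidogen that links laminin to collagen IV, was 2.83-fold lower, with C40 and C23 holding 88.2% and 83.5% of the sums of their sides. The direction of Nid2 reversed without C23 (log2 ratio 0.56), and Agrn was not compared with any 1 of its 5 cells left out.

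The secretory pathway was also near equal. Of 24 compared genes of collagen processing and the endoplasmic reticulum, 1 was higher and 1 lower, beside 14.6% and 10.7% of all genes. Xbp1, a transcription factor of the secretory pathway, was 3.70-fold higher. P3h2, a collagen prolyl hydroxylase, was 18.2-fold lower, with 93.2% of the low side's sum in C23. Without C23 its log2 ratio was −0.13. The chaperone Hspa5 averaged 2835 ± 1313 against 2486 ± 1076 CPM and P4hb 1859 ± 452 against 1835 ± 1110 CPM. Of 9 parietal endoderm genes none was higher and Stra6, a retinol transporter, was 21.1-fold lower. The protease Ctsl averaged 18897 ± 16806 against 13262 ± 9829 CPM. Visceral endoderm genes had 3 of 20 listed members compared and none past 2-fold, with Apoe at 1716 ± 1035 against 1510 ± 1274 CPM.

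**Figure D5:**
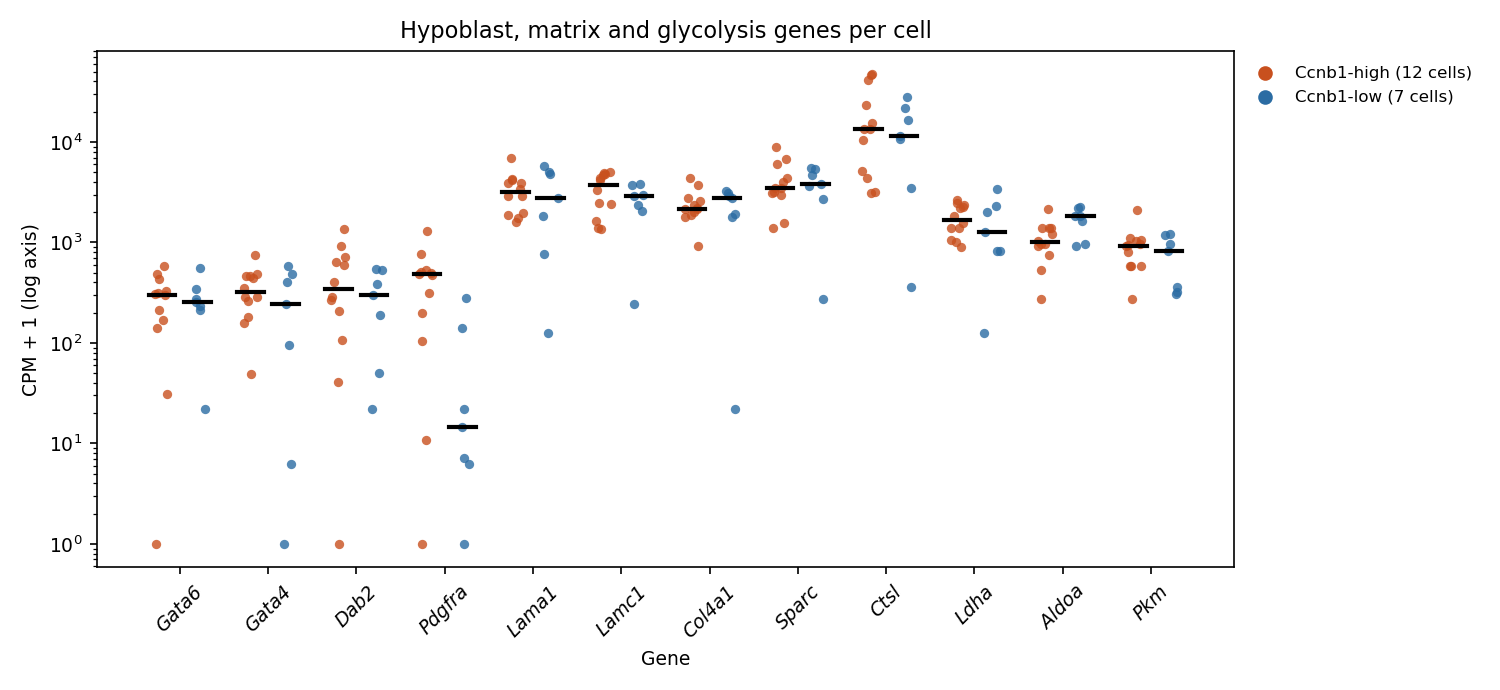
CPM + 1 on a log axis for 4 hypoblast genes, 5 matrix and parietal endoderm genes and 3 glycolysis genes, 1 dot per cell and a bar at the median of each side. The sides overlap for every gene, Pdgfra is shifted with medians of 480 and 13.6 CPM, and the low dots of Lama1, Col4a1 and Ctsl among Ccnb1-low cells include C46.

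Metabolic genes showed small ratios in the larger lists. Of 15 compared glycolysis genes 1 was higher and 1 lower (median −0.19), beside 14.6% and 10.7% of all genes. Slc2a1, the glucose transporter GLUT1, was 2.26-fold higher, with 77.3% of its sum in C26 and a log2 ratio of 0.91 without C46. Slc16a1, a lactate transporter, was 2.06-fold lower. Without C26 the direction of Slc2a1 reversed (−0.76), and without C38 the ratio of Slc16a1 was −0.23. Ldha averaged 1751 ± 614 against 1544 ± 1109 CPM, Pgk1 920 ± 751 against 817 ± 402 CPM and Pkm 915 ± 456 against 737 ± 406 CPM. Aldoa went the other way, at 1083 ± 489 against 1664 ± 538 CPM (log2 ratio −0.61).

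Of 37 genes of the TCA cycle and oxidative phosphorylation, 2 were higher and 1 lower, beside 14.6% and 10.7% of all genes. The median was 0.03. Ogdh, a subunit of the oxoglutarate dehydrogenase, was 3.29-fold higher and Idh3a, of isocitrate dehydrogenase, 2.09-fold lower. Cyc1, cytochrome c1, was 2.18-fold higher. Without C46 the ratios of Cyc1 and Idh3a were 0.95 and −0.85, and without C40 that of Cyc1 was 0.76.

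Of 22 genes of the pentose phosphate, nucleotide and one-carbon pathways, 1 was higher and 3 lower (median 0.03). Cad, the enzyme that starts pyrimidine synthesis, was 6.28-fold lower, Mthfd1 of the folate cycle 2.92-fold lower and Phgdh of serine synthesis 2.29-fold lower, whereas Prps1, which makes the ribose precursor of nucleotides, was 3.24-fold higher. Phgdh had a log2 ratio of −0.26 without C46. Cholesterol and fatty acid synthesis had 4 of 24 genes higher, beside 14.6% of all genes, and 1 lower, with a median of 0.55. Hmgcs1, Mvk, Nsdhl and Dhcr7, enzymes of the sterol pathway, were 2.11-, 4.17-, 3.58- and 3.57-fold higher, and Srebf1, a regulator of lipid synthesis, was 6.35-fold lower. Without C46 the log2 ratio of Hmgcs1 was 0.87 and the list's median 0.32. Hmgcs1 was at 0.81 without C25 and Srebf1 at −0.78 without C15.

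Of 37 ribosomal protein genes none was higher, Rps13 was 2.35-fold lower (log2 ratio −0.47 without C46), and the median was −0.03. How reads shared with near-identical copies were assigned is not given in the sources used here, so values of ribosomal protein and histone genes are uncertain. Of 9 stress genes none passed 2-fold (median −0.21), and of 22 genes of nucleosomes and chromatin H2ax and H2az2 were 3.24- and 2.78-fold higher and Cbx5 2.30-fold lower. Their log2 ratios were 0.85 without C40 (H2ax), 0.72 without C37 (H2az2) and −0.75 without C38 (Cbx5). Epithelial junction genes had 1 of 8 higher, Cldn6 (3.01-fold), and 3 lower, Cdh1 (2.80-fold), Ocln (4.90-fold) and Tjp1 (3.80-fold), with a median of −0.58. The shares over all genes were 14.6% higher and 10.7% lower, and the list is short. Cdh1 is E-cadherin, Ocln occludin and Tjp1 a scaffold of tight junctions, whose ratio was −0.56 without C13. Of the 7 apoptosis and RNA quality genes compared, 6 had ratios below 0, beside 2573 of all 5354 genes. The list's median was −0.43, or −0.29 without C46. The ribosomal RNA precursor Rn45s averaged 7383 ± 2287 against 9958 ± 4099 CPM. The list's member with a ratio above 0, Bcl2l11, was 3.65-fold higher with 72.6% of its sum in C24. Without that cell its ratio was 0.068 and its mean fell under the filter. Trophoblast genes summed to 179 to 1338 CPM in Ccnb1-high and 31.5 to 1432 CPM in Ccnb1-low cells, of which Krt8 and Krt18 are also expressed by hypoblast. Plac1, a placental gene, was read in C40 (839 CPM), C44 (454 CPM), C72 (430 CPM) and C27 (294 CPM), and Cdx2, Elf5 and Gata3, which define trophoblast, were at 0 in all 19 cells. Pluripotency genes summed to 111 to 1928 and 231 to 1158 CPM. The part of these cells in the results was not tested.

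The largest ratios over all genes included several without a mitotic role on these lists. Genes in which a single cell held more than 50% of the higher side's sum were passed over. Miip ran from 0 to 900 CPM in Ccnb1-high cells (median 222, reads in 7 of 12). It was at 0 in all 7 Ccnb1-low cells, 207-fold higher against the floor. Mtm1, the phosphoinositide phosphatase myotubularin, had reads in 10 of 12 and 0 of 7 cells. It was 78.5-fold higher against the floor, with a mean of 119 ± 99.9 CPM. Ceacam1, an adhesion molecule, averaged 212 ± 307 against 0.75 ± 1.99 CPM and Epha2, an ephrin receptor, 124 ± 177 against 0.46 ± 1.22 CPM, with too few reads on the low side for a fold. Gtf3c1 of the RNA polymerase III machinery and Mios of an amino acid sensing complex were 35.7- and 15.8-fold higher, and Aurka, Spag5, Mki67 and Bub1 made up the rest of the highest 10.

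At the other end were Ccnt2, a cyclin of transcription elongation, at 5.06 ± 17.5 against 147 ± 127 CPM (29.03-fold lower in Ccnb1-high cells), Ccne1, and Dock8, a guanine nucleotide exchange factor, at 3.83 ± 9.90 against 114 ± 111 CPM (29.9-fold). Abhd5, Kdsr and Alas1, which act in lipid breakdown, sphingolipid synthesis and haem synthesis, were 34.2-, 11.9- and 10.4-fold lower, and Abhd5 20.6-fold without C46. Gys1, glycogen synthase, averaged 0.27 ± 0.94 against 44.8 ± 54.4 CPM, and was not compared with any 1 of its 5 cells, C46 among them, left out. Among 3 records that no symbol matched, NM_001107547 and NM_001003959 were 42.1- and 14.3-fold lower.

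Across the 19 gene-rich cells the genes most like Ccnb1 by Spearman's rho of CPM were Kif23 (0.79), Slc11a2 (0.76), Cenpa (0.75), Spag5 (0.72), Ncoa4 and Elf2 (0.71 each), and Cdca3, Ptpn13, Rpl18 and Nsl1 (0.70 each). The lowest were Dennd6a (−0.76), Cdk5 and Cox6b1 (−0.71 each), Vdac3 (−0.70) and Alas1 (−0.69). Over all genes compared the median was 0.00 and 95% of values lay between −0.44 and 0.47. The cells share a culture and each gene's values share the cell's total, and these values are descriptions. Vdac3, a mitochondrial outer membrane channel, had 380.9 to 776 CPM in Ccnb1-low cells and 0 to 399 CPM in Ccnb1-high cells, with means of 572 ± 134 and 156 ± 136 CPM (3.67-fold lower). The ratios of Cdk5 without C38 and of Cox6b1 without C46 were −0.73 and −0.97. Vdac3 was singled out after its values were seen: C37 was the only Ccnb1-high cell above the lowest Ccnb1-low cell.

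The bulk library of the population had 47121 counts, in which Ccnb1 had 34 (722 CPM), Cdc20 22 (467 CPM) and Mki67 4 (84.9 CPM), and Ccne1 had 0, which allows up to 63.7 CPM at 3 counts. In the bulk library fewer cells with a transcript and less RNA per cell cannot be told apart. Of the 15 cells under the gene minimum, 3 had at least 100 CPM of Ccnb1 and 9 had none, and they entered no comparison.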

How the data were processed

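Single-cell RNA-seq of 34 rat converted hypoblast stem cells and 1 bulk library of the population was used as a table of counts per RefSeq transcript record that the authors deposited (unit: whole-number counts, not normalized). TopHat2 and the rn5 build are named per the submitters' processing notes. Not given in the sources used here: the counter, the annotation release, and how duplicates and multi-mapping reads were treated. The protocol names no molecular identifiers, and floors cover counting error only. Of 17201 records, 16215 were matched to a gene symbol through RefSeq tables and records of a symbol were summed, giving 17198 symbols or record names. The 986 records without a symbol held 3.88% of reads and stayed in the totals.

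Counts were scaled to CPM by each cell's total. Cells with a read in at least 4000 genes were split at 100 CPM of Ccnb1, and cells were weighted equally. A ratio is log2 of mean CPM plus 10 CPM, and a gene was compared with a mean over the sides of at least 20 CPM and a read in at least 5 gene-rich cells. Folds are ratios of mean CPM without the added 10 CPM. A fold against a side with no read uses a floor of 3 reads over that side, and none is given where a side had 1 to 3 reads. That floor pools the reads of a side while means weight cells equally, so such a fold is not a lower limit. In C46, where 1 read is 10.5 CPM, the same reads would give a higher floor. Shares of cells have exact Clopper-Pearson 95% intervals, which treat cells as independent draws and do not cover differences between cultures. Cells were also thinned to 95359 reads, the lowest total, which left out no cell. No doublet caller was run. Because the labels name no separate cultures, no test across cells was made. The calculation was tested on simulated counts with known changes and counting noise only. Those counts lack the spread between cells seen here, so how reliable the 2-fold differences are was not tested.

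Named genes were Ccnb1, Cdc20 and Mki67, every compared member of the 6 mitotic lists past 2-fold, the 4 members of highest mean CPM of each other list, the 10 largest ratios each way with no cell above 50% of the higher side's sum, and the 10 highest and 5 lowest Spearman rho with Ccnb1. Other genes given with values are list members past 2-fold or markers, and were singled out after their values were seen. The summary of 1 list is not reported here. The members of the sides and the 27 gene lists were chosen with earlier results of these data known. Alternatives were TMM factors (edgeR 4.0.16 in R 4.3.3), totals without Rn45s, 1 CPM added in place of 10, mean log2(CPM + 1), no filter, Ccnb1 thresholds of 50 and 200 CPM, 4500 genes, thinning, and each cell left out. After the data were seen, leaving out C46 and leaving out the cells within 2-fold of the threshold were added. Other tools were Python 3.11.15, numpy 2.4.6, pandas 2.3.3, scipy 1.17.1 and matplotlib 3.10.9.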

Additional observations from a re-analysis of the deposited data

Results flagged for a closer look

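In 2 summed lists 1 of the 7 Ccnb1-low cells lay far from the other 6. C46 had a cytokinesis sum of 2192 CPM, and C44 a sum of receptor and ERK feedback genes of 1221 CPM. The same screen of single genes found 1 Ccnb1-low cell apart for 42 of 153 named genes, Ccnb1 left out; chance alone sets a cell apart in about 1 group in 20, and genes read in 1 or 2 of the 7 cells meet the screen readily. The 12 Ccnb1-high cells were too many for this screen.

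Ccnb1 was also read outside the comparison. Among cells under the gene minimum it stood at 2034 CPM in C03, 923 CPM in C17, 314 CPM in C88, 68.9 CPM in C95 and 29.8 CPM in C54, and the bulk library had 722 CPM. C88 had 12750 counts in all, of which 4 were Ccnb1.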

How the results depend on the processing

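The higher share of mitotic genes kept its direction in each alternative tried: the mitotic median ran from 0.71 to 0.96 with each cell left out in turn, and the count of higher mitotic genes from 38 to 46, or from 41 to 55 under the other alternatives. With each cell left out, 760 to 902 genes were higher and 559 to 628 lower, the S phase median ran from −0.45 to −0.06, that of core hypoblast from 0.19 to 0.61, that of basement membrane from −0.063 to 0.28 and that of glycolysis from −0.27 to 0.09. The basement membrane median turned negative without C46 (−0.063), at a Ccnb1 threshold of 200 CPM (−0.041) and among cells with 4500 genes (−0.23), and was 0.70 with mean log2(CPM + 1). The glycolysis median turned positive at a threshold of 50 CPM (0.10), with 4500 genes (0.062), without cells within 2-fold of the threshold (0.030) and without C15 (0.031), C23 (0.085) or C44. Mean log2(CPM + 1) gave 1053 lower genes, and no filter on low genes gave 1381 higher and 1111 lower. The causes were not tested. Among cells with 4500 genes the core hypoblast median was 0.06. Of the 781 higher and 574 lower genes, 449 and 352 remained so at a threshold of 200 CPM, 430 and 244 among cells with 4500 genes, and at least 641 and 444 with 1 cell left out. Of the 42 mitotic genes 32 remained at 200 CPM, 35 with 4500 genes and 36 to 42 with 1 cell left out. No paired analysis was possible because the 2 sides share no replicate number and the comparison has no test. The depth of 1 read, 2.64 to 10.5 CPM per gene-rich cell, limits low genes.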
